A study of Rattus norvegicus with 8 samples.

Results

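The transcripts of translation initiation and elongation factors were examined in the livers of 4 male Wistar rats fed the HP diet (1.2% phosphorus) and 4 fed the control diet (0.3% phosphorus), each for 24 days. All rats were 8 weeks old by the labels, both diets were based on the AIN-93G formula, and total liver RNA was read on Affymetrix rat GeneChips, with 1 array for each animal. The members were the genes whose single symbol in the array's annotation begins with Eif1 to Eif6 or with Eef1 or Eef2. There were 60 such genes, with 93 probe sets, among 14218 genes with a single symbol and 31042 probe sets. The values are on a log2 scale, so that a difference of 1 is a doubling. In the authors' summary of the probes (FARMS), a probe set whose probes share no variation between arrays is left almost constant. A gene was therefore counted as measured where a probe set spanned at least 0.05 (log2) over the 8 rats, and the brightest such probe set stood for it. This left 29 of the 60 members, against 2808 of the 14218 genes.

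Protein synthesis begins when eIF2, loaded with GTP and the initiator tRNA, joins the small ribosomal subunit together with eIF1, eIF1A, eIF5 and the large scaffold eIF3. The mRNA is brought in by eIF4F, which consists of the cap-binding protein eIF4E, the scaffold eIF4G and the helicase eIF4A. The eIF4E-binding proteins compete with eIF4G for eIF4E, and they let go when mTORC1, the nutrient-sensing kinase, phosphorylates them. In elongation, eEF1A delivers each aminoacyl-tRNA to the ribosome and eEF2 moves the ribosome along by a codon. In the liver this machinery supports a large output of plasma proteins, and it is known to respond to feeding, amino acids and insulin.

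The measured member with the smallest span was Eif1a, at 0.126 (log2), and the largest span among the members that were not measured was 0.00800, in Eif2s3y. A further probe set of Eif5b spanned 0.0428 and was left out. The 31 members that were not measured were not all dim. Eif4a2 (an eIF4A helicase), Eef1g (a subunit of eEF1), Eif3f, Eif4h, Eif2ak1 (the heme-regulated eIF2 kinase), Eif4ebp2, Eif6 and Eif4b had mean log2 values of 11.55, 10.64, 10.16, 9.77, 9.62, 9.38, 9.24 and 9.12 and were almost constant, so that they give no information on the diets. Another 5 probe sets list more than 1 symbol, among them those of Eif3e and Eif5, and were not used.

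The upstream bases of 4 genes are shown as examples. Eif4e and Eif4g1, 2 parts of the cap-binding complex eIF4F, and Eef2 carried the same motif before their start. Eif4ebp3, the member that differed most between the diets, held no searched motif. Neither did Eef1a1, which differed by -0.32 (HP minus control, log2), while Eif5a, which held the motif of Eif4e, differed by -0.0049. A link between the motif and the diets was not tested. The sequences are the 250 bases before the gene's start in RefSeq on the GRCr8 build, for Eif4e at chr2:229740503-229740752 (plus strand), for Eif4g1 at chr11:93746368-93746617 (minus strand), for Eef2 at chr7:9189239-9189488 (minus strand) and for Eif4ebp3 at chr18:28540074-28540323 (plus strand). They are written 5′ to 3′ along the gene, and capitals mark a match to a searched motif.
Eif4e: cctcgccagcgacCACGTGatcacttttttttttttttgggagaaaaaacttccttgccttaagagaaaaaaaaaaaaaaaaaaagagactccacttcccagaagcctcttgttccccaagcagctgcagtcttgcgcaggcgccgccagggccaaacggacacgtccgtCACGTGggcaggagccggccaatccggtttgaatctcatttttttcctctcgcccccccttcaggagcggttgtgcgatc
Eif4g1: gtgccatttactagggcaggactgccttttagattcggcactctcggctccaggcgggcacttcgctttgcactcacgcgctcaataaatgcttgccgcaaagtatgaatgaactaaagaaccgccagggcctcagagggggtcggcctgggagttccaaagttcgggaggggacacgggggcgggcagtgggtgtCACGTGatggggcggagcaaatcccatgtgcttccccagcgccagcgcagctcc
Eef2: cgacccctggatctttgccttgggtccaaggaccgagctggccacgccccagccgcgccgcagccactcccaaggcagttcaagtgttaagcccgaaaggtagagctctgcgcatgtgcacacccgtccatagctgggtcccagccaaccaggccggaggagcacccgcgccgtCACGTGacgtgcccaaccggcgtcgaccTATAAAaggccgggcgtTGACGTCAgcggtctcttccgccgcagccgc
Eif4ebp3: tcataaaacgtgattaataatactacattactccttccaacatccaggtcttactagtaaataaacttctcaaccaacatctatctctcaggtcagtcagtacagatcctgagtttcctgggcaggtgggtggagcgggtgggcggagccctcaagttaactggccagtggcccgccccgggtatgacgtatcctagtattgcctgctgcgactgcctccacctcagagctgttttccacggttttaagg

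The motif in capitals in Eif4e and Eif4g1 is CACGTG, the palindromic E-box that MYC and USF proteins can bind. It begins 237 and 80 bases before the start of Eif4e, 54 before that of Eif4g1 and 76 before that of Eef2, where the TATAAA box and the cAMP response element TGACGTCA begin 48 and 31 bases before the start. Of the 29 measured members, 25 had an entry in the table of promoters, and 5 of these (Eif4e, Eef2, Eif5a, Eif4g1 and Eif3b) held CACGTG. Eif4ebp1, Eif4e3, Eif3h and Eef1d had no entry. CACGTG was thus in 20% of the 25, against 8.37% of the 2354 measured genes with an entry and 5.59% of all 33469 promoters of the same length. TATAAA, searched on both strands as TATAAA and TTTATA, was in 2 of the 25 (8% against 8.58% of the measured genes and 12.9% of all promoters), and TGACGTCA was in 1 (4% against 3.02% and 1.59%). The C/EBP-ATF response element TTGCATCA or its reverse TGATGCAA was in Eif2s2 alone of the 25 (4% against 1.06% and 0.693%), and the FOXO element GTAAACA or TGTTTAC was in 0 (against 2.72% and 3.21%). The TOP motif, a C followed by 4 pyrimidines at the start itself, was also in 0 of the 25 (against 2.34% and 2.63%). That search depends on the exact base annotated as the start. No match overlapped another in these genes, and the matches describe letters and not bound sites.

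On the HP diet both measured eIF4E-binding proteins were called higher by rank products, and the scaffold Eif4g1 and the elongation factor Eef1a1 lower. Of the 29 members, 20 had a negative difference (HP minus control) and 9 a positive one, that is 69.0% negative against 54.7% of the 2808 measured genes. The split depended on the scaling: with the arrays centred on their medians it was 17 negative and 12 positive (58.6% negative against 48.0% of the measured genes), and after quantile normalization again 17 and 12 (58.6% against 51.2%). In bins of mean level, the share of measured genes with a negative difference was 53.9% at 5 to 9, 57.6% at 9 to 10 and 53.8% at 10 to 15 (log2). The median difference of the members was -0.07 (log2), and that of all measured genes -0.013. By rank products, the method of the study, which ranks the differences between pairs of arrays, 2 of the 29 were higher (Eif4ebp1 and Eif4ebp3) and 2 lower (Eif4g1 and Eef1a1) at an FDR under 0.05. The same calls took in 8.48% of the measured genes as higher and 9.94% as lower (1.14% and 1.62% of all probe sets, almost constant ones included), so that the share of members called lay near that background. By limma with Benjamini-Hochberg adjustment, 0 of the 29 members and 0% of the 4155 probe sets tested passed, and the adjusted p of the members lay between 0.245 and 0.998. Before adjustment, the limma p was under 0.05 for 1 higher member (Eif4ebp1) and 2 lower ones (Eif4g1 and Eif4g2), against 5.77% and 6.3% of the measured genes (5.37% and 7.29% of the probe sets tested).

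**Figure D1:**
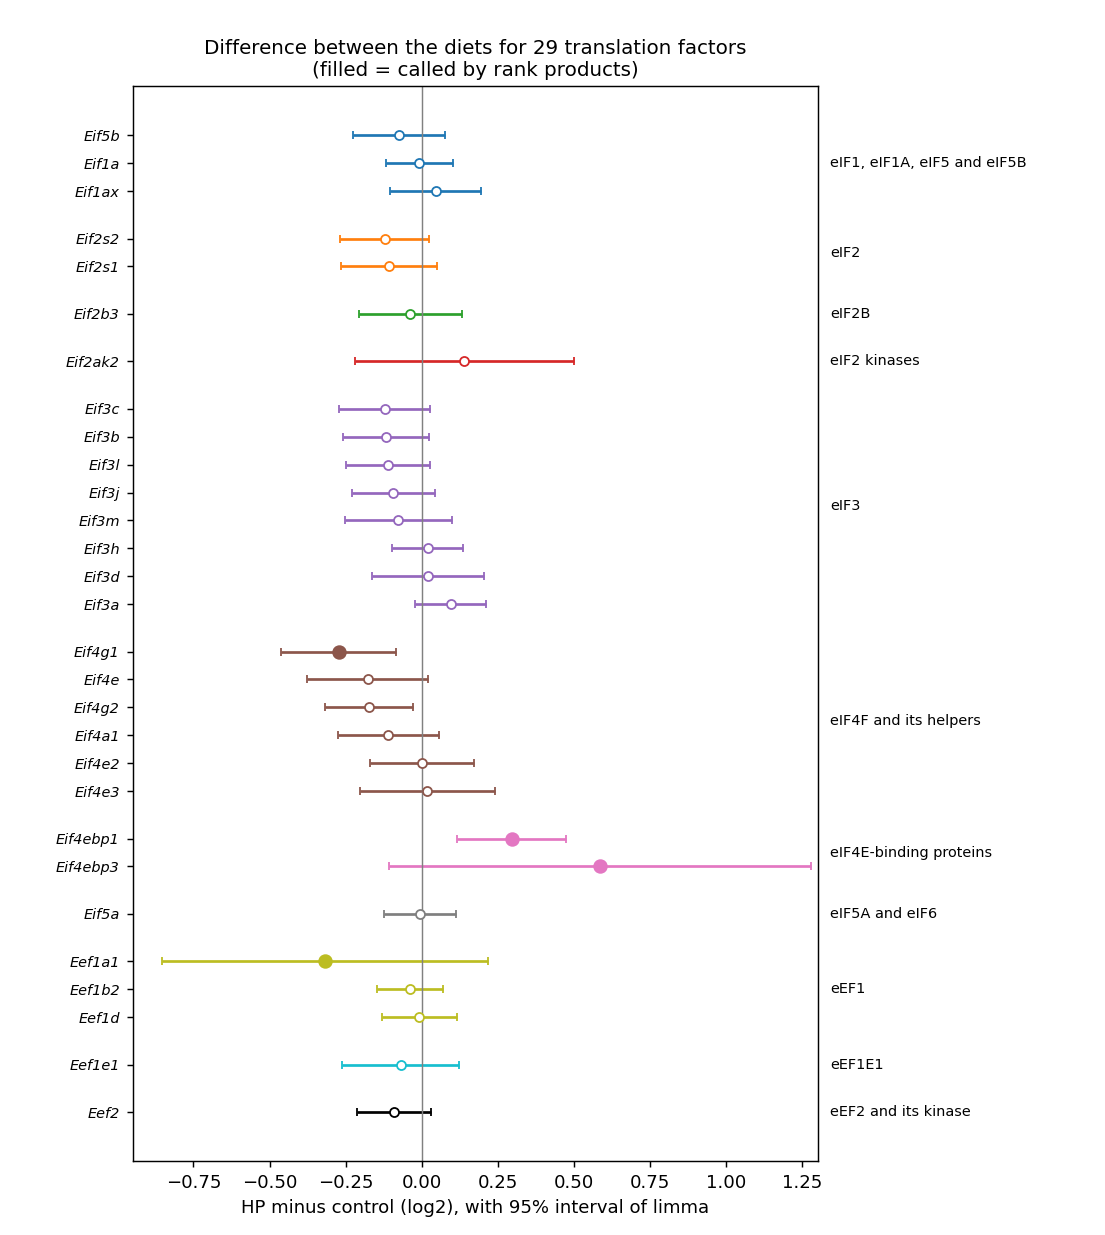
Difference between the diets (HP minus control, log2, horizontal axis) for the 29 measured factors, grouped by factor complex, with the 95% interval of limma and filled points where rank products called the gene. Both eIF4E-binding proteins lie to the right of 0 and Eif4g1, Eif4e, Eif4g2 and Eif4a1 to the left, and the intervals of Eif4ebp1, Eif4g1 and Eif4g2 are the ones that leave 0 out.

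Of the 4 genes of the eIF4E-binding proteins on the array 2 were measured. Both were called higher when all probe sets were ranked, as were 8.48% of the measured genes. When only spanning probe sets were ranked, Eif4ebp3 alone was called. Eif4ebp1 encodes 4E-BP1, the best studied target of mTORC1 on this pathway. Its log2 values were 8.30, 8.42, 8.26 and 8.19 in HP rats, against 8.11, 8.03, 7.88 and 7.98 in control rats. Every HP rat lay above every control rat, as was the case for 3.6% of the measured genes. The means were 8.29 ± 0.10 in HP rats and 8.00 ± 0.10 in control rats (SD, n = 4 each), a difference of 0.29 (limma standard error 0.08) or 1.23-fold. Its FDR by rank products was 0.00667, and its limma p after adjustment over the probe sets tested was 0.245.

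Eif4ebp3, a relative with the same eIF4E-binding role, had log2 values of 10.79, 10.83, 11.34 and 10.52 in HP rats, against 11.20, 10.10, 10.18 and 9.65 in control rats. Control rat 1 lay among the HP rats, and the other 3 control rats lay below every HP rat. The means were 10.87 ± 0.34 in HP rats and 10.28 ± 0.66 in control rats (SD, n = 4 each), a difference of 0.58 (limma standard error 0.31, 95% interval -0.11 to 1.28). Rank products gave an FDR of 0.000962 and limma an adjusted p of 0.444. Without control rat 1 the difference was 0.89, and without control rat 4 it was 0.37. Eif4ebp2 was almost constant, and so was Eif4enif1, which carries eIF4E into the nucleus.

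**Figure D2:**
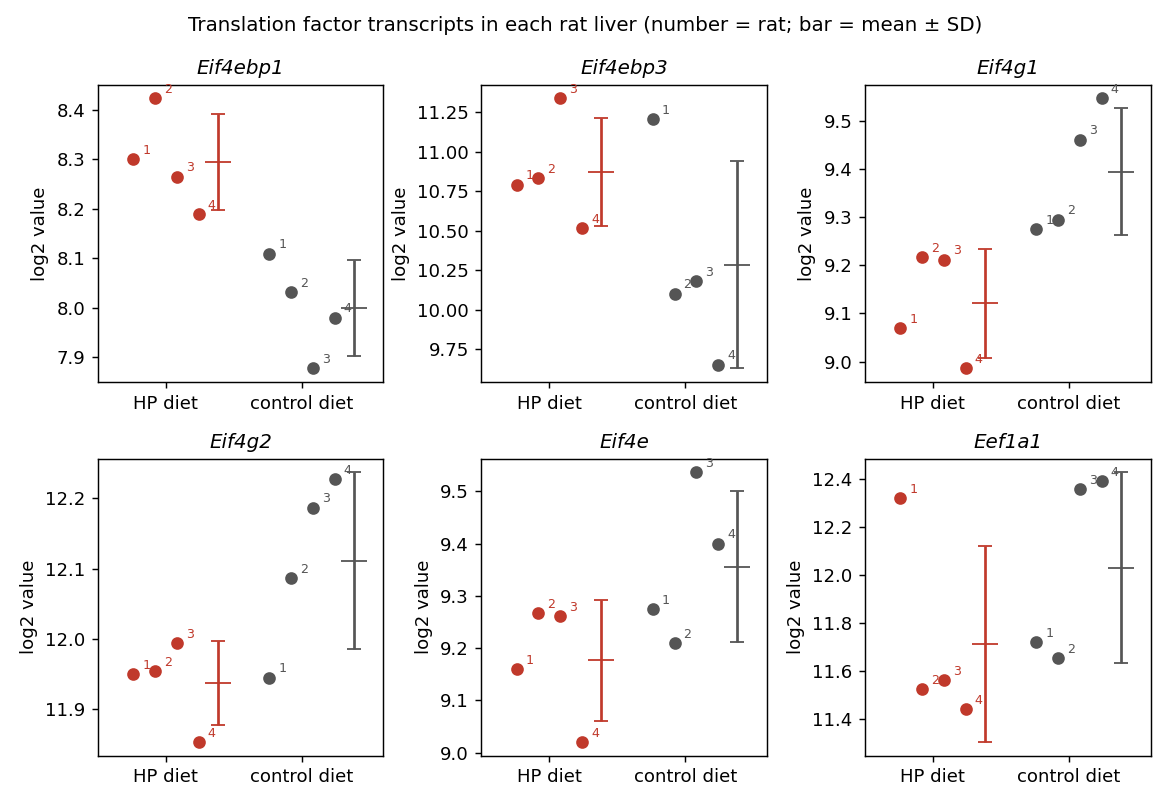
Log2 values (vertical axis) of 6 members in each rat, with HP rats in red and control rats in grey; numbers give the rat, and the bar gives the mean ± SD of 4 rats. The HP and control rats do not overlap for Eif4ebp1 and Eif4g1, and Eef1a1 has 3 rats near 12.3, of which 1 was fed the HP diet.

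In the eIF4F group, 1 scaffold gene was called lower on the HP diet, and Eif4g2, the cap-binding protein and the helicase had negative differences that were not called at the probe sets that stand for them. The third scaffold gene, Eif4g3, was not measured. Eif4g1, the scaffold that bridges the cap and the ribosome, had log2 values of 9.07, 9.22, 9.21 and 8.99 in HP rats, against 9.27, 9.29, 9.46 and 9.55 in control rats. The highest HP rat lay below the lowest control rat, as for 3.53% of the measured genes. Eif4g1 averaged 9.12 ± 0.11 in HP rats and 9.39 ± 0.13 in control rats (SD, n = 4 each), which is 0.827 times the control level (difference -0.27, limma standard error 0.08). Its FDR was 0.0150 by rank products, and its adjusted p was 0.303 by limma.

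Eif4g2, a relative of the scaffold that lacks the eIF4E-binding part and serves cap-independent initiation, had the highest mean among the probe sets that stand for the members, with log2 values of 11.95, 11.95, 11.99 and 11.85 in HP rats, against 11.94, 12.09, 12.19 and 12.23 in control rats. Control rat 1 lay among the HP rats. The difference was -0.17 (limma standard error 0.06, adjusted p = 0.350), which rank products did not call (FDR 0.0873). The cap-binding protein gene Eif4e averaged 9.18 ± 0.12 in HP rats and 9.36 ± 0.14 in control rats (SD, n = 4 each), and its FDR of 0.0562 missed the threshold. The helicase gene Eif4a1 differed by -0.11 (95% interval -0.27 to 0.06). The cap-binding relatives Eif4e2 and Eif4e3 differed by 0.00098 and 0.02. Over the 6 measured genes of this group the median difference was -0.14, with 4 negative, 2 positive and 1 called lower. Among all measured genes 54.7% were negative and 9.94% were called lower. In this group 4 of the 10 members on the array were not measured.

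The subunits of eIF3, the scaffold on the small ribosomal subunit, had no call at the probe sets that stand for the genes. Of 8 measured subunits, 5 had a negative difference and 3 a positive one, and 54.7% of all measured genes were negative. At those probe sets 0 were called by rank products or by limma at an unadjusted p under 0.05. The median difference was -0.09 (a dimmer probe set of Eif3c was called and is given with the other probe sets). Eif3c, a core subunit whose probe set had the highest mean of the 8, had log2 values of 10.47, 10.61, 10.61 and 10.49 in HP rats, against 10.57, 10.67, 10.82 and 10.61 in control rats. The diets overlapped, and the difference was -0.12 (limma standard error 0.07, 95% interval -0.27 to 0.03). Eif3b, Eif3l, Eif3j and Eif3m differed by -0.12, -0.11, -0.09 and -0.08. Eif3a, the largest core subunit of the complex, had a positive difference of 0.09 (95% interval -0.02 to 0.21), and Eif3d, which can bind the cap of some mRNAs, and Eif3h differed by 0.02 each.

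The genes that serve eIF2 and the start codon had no call at the probe sets that stand for them, while a dimmer probe set of Eif5b, given with the other probe sets, was called. The α and β subunits of eIF2, Eif2s1 and Eif2s2, differed by -0.11 and -0.12, with FDRs of 0.155 and 0.108 by rank products. Eif2s2 averaged 10.26 ± 0.07 in HP rats and 10.38 ± 0.10 in control rats (SD, n = 4 each). Eif2b3, 1 of the 5 subunits of the exchange factor eIF2B on the array, was the only measured one and differed by -0.04. Eif2ak2, the interferon-induced kinase PKR that phosphorylates eIF2α, was the only measured eIF2 kinase of 4. It averaged 8.00 ± 0.24 in HP rats and 7.86 ± 0.27 in control rats (SD, n = 4 each), and its difference of 0.14 was smaller than either SD (FDR 0.141). Eif1a, an eIF1A gene that helps to fix the start codon, had log2 values of 9.51, 9.56, 9.64 and 9.54 in HP rats, against 9.60, 9.56, 9.54 and 9.58 in control rats, and the diets overlapped. Eif5b, the GTPase that joins the large subunit, had 8.71, 8.83, 8.78 and 8.72 in HP rats, against 8.74, 8.80, 8.97 and 8.83 in control rats, with the diets overlapping. Its difference was -0.08 (95% interval -0.23 to 0.07), and that of Eif1ax was 0.05. Eif5a, the factor that carries hypusine, differed by -0.0049 (95% interval -0.12 to 0.11).

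Of the 5 measured elongation genes, 1 was called lower by rank products, against 9.94% of all measured genes. All 5 had a negative difference in the deposited values, against 54.7% of all measured genes. Eef1d turned positive after centring or quantile normalization, where 48.0% and 51.2% of all measured genes were negative. Eef1a1, the carrier of aminoacyl-tRNA, had log2 values of 12.32, 11.53, 11.56 and 11.44 in HP rats, against 11.72, 11.65, 12.36 and 12.39 in control rats. The values fell into a high level (HP rat 1 with control rats 3 and 4) and a lower one (the other 5 rats), so that the diets overlapped. The means were 11.71 ± 0.41 in HP rats and 12.03 ± 0.40 in control rats (SD, n = 4 each), and the difference of -0.32 (limma standard error 0.24, adjusted p = 0.555) was smaller than either SD although rank products called it lower (FDR 0.0101). It was -0.52 without HP rat 1 and -0.20 without control rat 4. The brighter probe set of Eef1a1, at a mean of 12.14, spanned 0.00039 and gives no information on the diets. This gene has many near-identical copies in mammalian genomes, so that its level is uncertain. Eef2, the translocase, averaged 11.02 ± 0.07 in HP rats and 11.11 ± 0.07 in control rats (SD, n = 4 each), a difference of -0.09 with an FDR of 0.187. The exchange factor genes Eef1b2 and Eef1d differed by -0.04 and -0.0079, and Eef1e1, which belongs to the multisynthetase complex, by -0.07.

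Several probe sets that measured the same gene mostly had the same sign. Of the 7 members with more than 1 probe set spanning at least 0.05, 6 had a single sign in all of them, and in each of these the sign was negative in the deposited values (the brighter probe set of Eif1a turned positive after centring or quantile normalization). Of the 38 spanning probe sets of the members, 6 were called lower and 2 higher by rank products, against 12.1% and 8.5% of all 4155. Negative differences were at 29 of the 38 (76.3% against 56.5% of all), at 26 after centring (68.4% against 50.3%) and at 26 after quantile normalization (68.4% against 53.5%). The additional calls were at dimmer probe sets, which are named here because of their values. The diets did not overlap at 3 of the 38 with lower values on the HP diet and at 1 with higher values. The share over all 4155 was not counted. At 1 probe set for each measured gene it was 3.53% lower and 3.6% higher. The dimmest spanning probe set of Eif4g2 had log2 values of 8.55, 8.48, 8.59 and 8.43 in HP rats, against 8.65, 8.81, 8.93 and 8.85 in control rats, with no overlap between the diets. It differed by -0.30 (limma standard error 0.07, limma adjusted p = 0.217, rank products FDR 0.0119). The second probe set of Eif5b had 8.64, 8.55, 8.57 and 8.72 in HP rats, against 8.79, 8.73, 9.09 and 8.81 in control rats, again without overlap (difference -0.24, FDR 0.0195). Second probe sets of Eif4g1 and Eif3c, with differences of -0.24 and -0.21, were called too (FDR 0.0245 and 0.0434), although the diets overlapped there. The probe sets of Eif3a disagreed, at 0.09 for the brighter and -0.11 for the dimmer, and their mean was -0.0061.

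**Figure D3:**
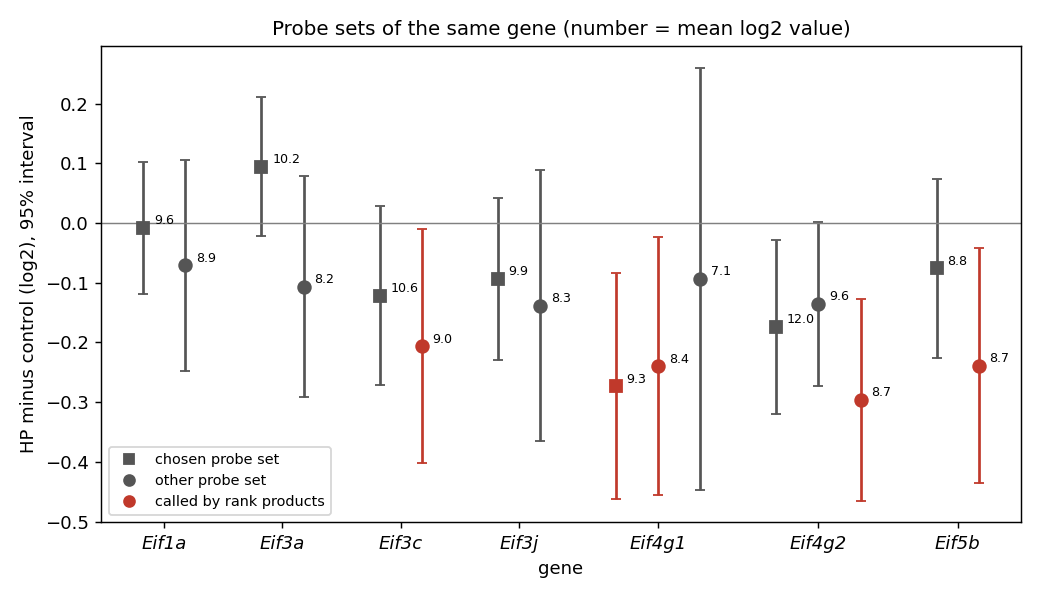
Difference between the diets (HP minus control, log2, vertical axis, with the 95% interval of limma) at each probe set of the 7 members with several, from brightest to dimmest within a gene; numbers are mean log2 values, squares mark the probe set that stands for the gene, and red marks a rank products call. All probe sets of Eif4g1, Eif4g2, Eif3c, Eif3j, Eif5b and Eif1a lie below 0, and those of Eif3a lie on both sides.

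The rats within a diet were not alike. The median of the 29 members, each relative to its mean over the 8 rats, was -0.09, 0.01, 0.01 and -0.07 in HP rats 1 to 4, against -0.02, -0.04, 0.09 and 0.09 in control rats 1 to 4. HP rats 1 and 4 were low and control rats 3 and 4 were high, while HP rats 2 and 3 lay above control rats 1 and 2. Control rat 3 had the highest value of 12 members and control rat 4 that of 8, whereas HP rat 4 had the lowest value of 10 and HP rat 1 that of 9. Over all measured genes the same median lay between -0.011 and -0.0013 in HP rats and between -0.013 and 0.03 in control rats, with control rat 3 the highest. The median difference of the members was -0.02 without control rat 3 and -0.05 without control rat 4.

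**Figure D4:**
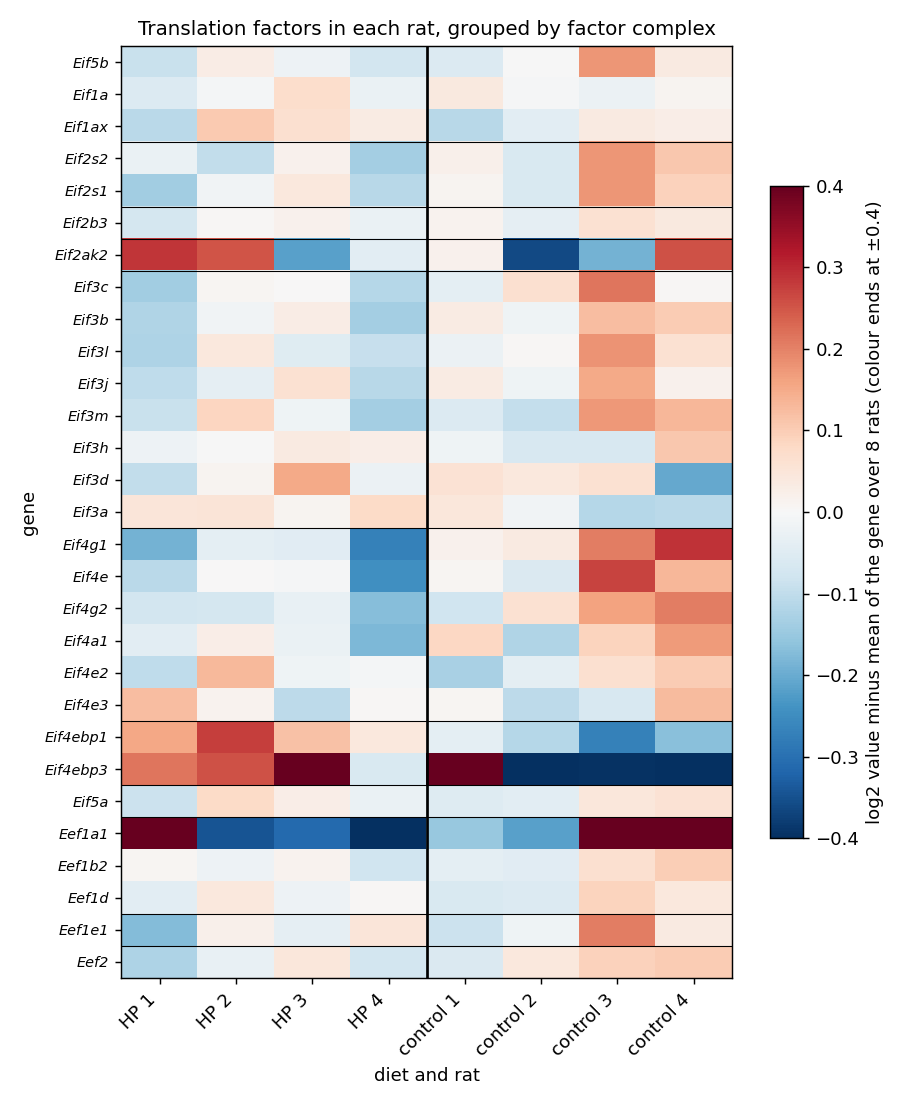
Log2 value of each of the 29 members (rows, grouped by factor complex) in each rat (columns, HP rats left and control rats right), relative to the gene's mean over the 8 rats; colours end at ±0.4. Red is above and blue below that mean, and control rat 3 holds the highest value in 12 rows and control rat 4 in 8.

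Other genes of translation gave a mixed picture. Of 11 measured cytosolic aminoacyl-tRNA synthetases, which charge tRNAs, a list drawn up after the table had been opened, 10 had a negative difference (90.9% against 54.7% of all measured genes, median -0.10). Rank products called 4 of them lower, Nars1, Yars1, Iars1 and Eprs1, against 9.94% of all measured genes. Their differences were -0.20, -0.17, -0.15 and -0.15, and their limma adjusted p lay between 0.298 and 0.410. The diets did not overlap in 4 of the 11, which were these same genes, against 3.53% of all measured genes. Nars1 averaged 9.48 ± 0.07 in HP rats and 9.67 ± 0.09 in control rats (SD, n = 4 each, FDR 0.0298). Of 33 measured cytosolic ribosomal proteins, 28 had a positive difference (median 0.03) and 5 a negative one (15.2% negative against 54.7% of all measured genes, 9.09% against 48.0% after centring). Rank products called 2 higher (Rps24 and Rps29) and 0 lower, against 8.48% and 9.94% of all measured genes. Rps24, a protein of the small subunit, averaged 11.33 ± 0.03 in HP rats and 11.18 ± 0.05 in control rats (SD, n = 4 each, FDR 0.0342), and Rps29 differed by 0.11 (FDR 0.0496). The ribosomal list was drawn by symbol, and it also holds the related genes Rpl7l1, Rpl39l1 and Rps4y2. These had mean levels of 8.41, 6.54 and 7.42 and differed by -0.0072, 0.18 and 0.0083. The median differences of the translation factors and the synthetases were thus negative and that of the ribosomal proteins positive, and the difference between these lists was not tested.

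Among partners of the initiation factors, Dhx29, a helicase that helps the small subunit through structured leaders, had log2 values of 9.08, 9.22, 9.23 and 9.01 in HP rats, against 9.27, 9.30, 9.70 and 9.56 in control rats. The diets did not overlap, and the difference was -0.32 (limma standard error 0.11, rank products FDR 0.00943, limma adjusted p = 0.332). Of 5 measured genes in the list of poly(A)-binding and scaffold partners, 4 were negative and 1 was called. Among all measured genes 54.7% were negative and 9.94% were called lower. The diets did not overlap in 2 of the 5, Dhx29 and Larp1 (difference -0.09, not called), as for 3.53% of all measured genes. Dnajc3, an inhibitor of eIF2α kinases that sits in the endoplasmic reticulum, averaged 10.97 ± 0.14 in HP rats and 11.21 ± 0.10 in control rats (SD, n = 4 each) and was called lower (FDR 0.0243), 1 of 2 measured in its list. Of 6 measured genes of mTORC1 and its translation arm, a list that also holds the ribosomal protein Rps6, 3 were positive, 3 were negative and 0 were called. None of the 3 measured termination and recycling genes was called, 1 gene of hypusine and diphthamide synthesis was measured and not called, and 0 of the 9 mitochondrial translation factors on the array were measured.

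Pairs of arrays correlated at 0.968 to 0.992 over the probe sets that spanned at least 0.05. The hepatocyte markers checked the tissue: 7 on the array had mean levels from 12.23 to 14.53, and their mean per rat was 13.57 to 13.61 in HP rats and 13.62 to 13.66 in control rats. The diets did not overlap in that mean, and the list names Cps1, which the paper reports as lower on the HP diet. Of the 3 hepatocyte markers that spanned 0.05, 2 had a positive difference and 1 a negative one, with a median of 0.0027. The diets did not overlap in the negative one, as for 3.53% of the measured genes. The 1 spanning erythroid marker differed by 0.24. The difference was positive for 4 of 4 measured markers of sinusoidal endothelium (mean of the list per rat 8.83 to 8.94 in HP rats and 8.74 to 8.84 in control rats), and for 5 of 5 of stellate cells (7.94 to 8.08 in HP rats and 7.89 to 8.07 in control rats). It was negative for 7 of 7 markers of Kupffer cells (8.503 to 8.716 in HP rats and 8.498 to 8.857 in control rats). Among all measured genes 54.7% had a negative difference. In 1 of the 4 endothelial markers the diets did not overlap, with higher values on the HP diet, as for 3.6% of the measured genes. Of the markers of cholangiocytes, lymphocytes and neutrophils on the array, 0 spanned 0.05, and 4 of 5, 6 of 6 and 3 of 3 lay below the median level of the probe sets. The part of these cells in the differences above was not tested, and in whole liver a smaller share of a cell type and less RNA per cell cannot be told apart.

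The calls by rank products depend on the almost constant probe sets that are ranked with the others. With the ranking restricted to spanning probe sets, Eif4ebp3 was still called (FDR 0.0457) and Eif4ebp1, Eif4g1 and Eef1a1 were not (FDR 0.459, 0.639 and 0.394). The calls at dimmer probe sets and in the other lists were not followed under that ranking. It called 25 probe sets higher and 16 lower in all, against 353 and 505 with all probe sets ranked. Eif4ebp1 was not called without HP rat 2 (FDR 0.0729), Eif4g1 not without control rat 2, 3 or 4 (0.0644, 0.0907 and 0.0831) and Eef1a1 not without control rat 3 or 4 (0.111 and 0.0873).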

How the data were processed

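Liver RNA of 8 rats (4 HP diet, 4 control diet, 1 array each) was analysed. The authors quantified the scanned arrays with FARMS, in R 2.13.1 according to their processing notes, and deposited log2 values per probe set; how the arrays were normalized to each other was not stated in those sources, and no further step was added. The table held 31042 probe sets and 57 control probe sets. The number of arrays limits the precision, and no background value was used. Symbols came from the platform annotation (20832 probe sets with a single symbol, 436 with several).

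Rank products were computed over all probe sets from the 16 HP minus control pairs of arrays, permuting each array's values 1000 times (Python 3.11.15, numpy 2.4.6, pandas 2.3.3). limma 3.58.1 in R 4.3.3 (statmod 1.5.0) was fitted with a trend and robust empirical Bayes to 4155 probe sets with a span of 0.05 or more, without the array's controls, two-sided, with Benjamini-Hochberg adjustment over all of them. Standard errors and 95% intervals are those of limma. Both were tested on simulated data for probe sets with a span of 0.05 or more, with added changes larger than any member's difference. The simulation left out the almost constant probe sets, so it does not check the calls of rank products over all probe sets. Lists were described by counts and medians and not tested; kinases and pseudogenes were left out of the ribosomal list, the synthetases were listed after the table had been opened, and the motifs were not among the planned tests. Members and lists were chosen with earlier results of these data known.

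Values of every rat were given for members called by rank products, members without overlap between the diets, and, in each complex with at least 3 measured members, the one with the largest difference and the brightest; called genes of the other lists were named. Alternatives were median centring of the arrays over spanning probe sets, quantile normalization, other filters, empirical Bayes without trend, weights per array, a replicate block, the mean of a gene's probe sets, the mean of the members, and leaving out each rat. Figures were drawn with matplotlib 3.10.9.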

Additional observations from a re-analysis of the deposited data

Results flagged for a closer look

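Within a diet, 2 of the 58 sets of 4 values (29 members, 2 diets) held a value far from the other 3 by Dixon's test, where chance flags about 1 in 20. For Eef1a1, HP rat 1 had a log2 value of 12.32, against 11.44 to 11.56 in the other HP rats, a gap of 0.865 of the range of that diet. For Eif3d, control rat 4 had 9.21, against 9.45 to 9.47 in the other control rats, a gap of 0.928 of the range.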

How the results depend on the processing

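The differences of 23 of the 29 members kept their sign under every limma alternative run, and those of Eef1d, Eif1a, Eif3d, Eif4e2, Eif4e3 and Eif5a, all of at most 0.02 in size, changed it. Averaging a gene's spanning probe sets, which was run outside limma, also turned Eif3a from 0.09 to -0.0061. Limma called 0 members under each of its alternatives, with a lowest adjusted p of 0.0850 (Eif4g2 without control rat 1). After centring, Eef1d, Eif1a and Eif5a differed by 0.013, 0.012 and 0.016, after quantile normalization by 0.00784, 0.00578 and 0.00689, and with array weights Eif1a and Eif5a differed by 0.015 and 0.011. With 1 rat left out, differences ran from -0.029 to 0.021 (Eef1d), from -0.034 to 0.0081 (Eif1a), from -0.044 to 0.057 (Eif3d), from -0.042 to 0.035 (Eif4e2), from -0.020 to 0.063 (Eif4e3) and from -0.031 to 0.023 (Eif5a).

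When only probe sets spanning at least 0.05 were ranked, rank products called 1 member higher and 0 lower, and 25 and 16 probe sets in all against 353 and 505; without the dimmest 25% of probe sets, 233 and 304 in all. With 1 rat left out, rank products called 1 to 3 members higher and 0 to 3 lower, and 85 to 586 probe sets higher and 72 to 538 lower. At an unadjusted p under 0.05, limma gave 1 to 3 members higher and 1 to 5 lower with 1 rat left out, and 2 higher both without the span filter and with array weights. The mean difference of the eEF1 genes was -0.12, against a median of -0.04, and the 3 genes include Eef1a1 at -0.32. Medians of all members, eIF3 and eIF4F were negative under every alternative run, with 1 rat left out from -0.098 to -0.025, from -0.117 to -0.046 and from -0.175 to -0.097. That of eEF1 then ran from -0.061 to -0.013, and that of the eIF1 group from -0.034 to 0.0081. The deviations of same-numbered rats correlated at 0.479, 0.0308, -0.123 and -0.197, without a common sign. So few values cannot decide whether the replicate numbers pair the rats. With the replicate block limma again gave 1 higher and 2 lower members at an unadjusted p under 0.05 and 0 after adjustment.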
